A study of Mus musculus with 4 samples.

Results

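Replication-dependent histone genes supply the histone proteins that package newly copied DNA. They were taken here as all genes of the platform annotation whose symbol starts with H1f, H2ac, H2bc, H3c or H4c followed by digits, on probe sets that name 1 gene. The rule found 30 genes of 19938 on the array: 8 of type H1, 4 of type H2A, 9 of type H2B, 3 of type H3 and 6 of type H4. Of these, 23 lie on chromosome 13, 4 on chromosome 3 (H2bc18, H2bc21, H3c15 and H4c14), and H1f7, H1f8 and H1f10 elsewhere. The symbol rule also takes in 4 linker histone genes that are not tied to DNA replication (H1f6, H1f7 and H1f8 of germ cells, and the replacement histone H1f10), as well as H2ac1 and H2bc1, which are best known from testis.

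In most dividing cells, transcription of these genes is driven in S phase by NPAT at the histone locus body. Their mRNAs end in a stem-loop in place of a poly(A) tail, the stem-loop binding protein SLBP accompanies that end through processing and translation, and the mRNAs are degraded when DNA synthesis stops. Several of the genes, among them H1f2, H2bc4 and H2bc21, are known to give polyadenylated transcripts as well, including in cells that have stopped dividing. H2A, H2B, H3 and H4 form the nucleosome core, and H1 binds the DNA between nucleosomes.

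Expression was measured on 4 arrays, each with RNA of a sorted population of CD4+ thymocytes from C57BL/6n mice aged 8 weeks. The wild-type (WT) animals carried miR-142+/+, and 5 of them (3 female, 2 male) were pooled. The miR-142-/- animals lacked miR-142, a microRNA abundant in blood cells, and 4 of them (1 female, 3 male) were pooled. From each pool, after depletion of CD8+ cells on magnetic beads, a less mature population (CD4+CD8-CD69+Qa2-) and a more mature one (CD4+CD8-CD69-Qa2+) were sorted. Each of the 4 groups is therefore 1 array of 1 pool, and the genotype comparison and the comparison of the stages within a genotype have no replicates, no error and no test. For the miR-142-/- Qa2- sample the description names the opposite stage, and the stage was taken from its title, which its sorting entry matches. The 4 markers of the CD69+ stage (Cd69, Cd24a, Ccr4 and Ccr9) were each higher on that array than on the miR-142-/- Qa2+ array. Their mean was log2 11.61 against 10.30, and in WT, with the same direction, 11.67 in Qa2- against 10.02 in Qa2+ cells.

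Mir142 itself was at log2 10.11 (Qa2-) and 9.41 (Qa2+) in WT, against 5.29 and 4.88 in miR-142-/- cells. All 5 marker genes of CD4 single-positive thymocytes were above the background threshold of log2 5.87, and Cd4 read 12.36 to 12.64 on the 4 arrays. Of the markers of other cells, 1 of 3 for B cells (Cd79b), 2 of 4 for myeloid cells (Lyz2, Itgam), 2 of 4 for thymic stroma (Epcam, Psmb11) and 0 of 1 for erythroid cells were above that threshold, and Cd79a, Ms4a1, Csf1r, Cd14, Foxn1 and Pdgfra were below it. Xist was at 12.67 and 12.14 in WT, against 5.06 and 4.83 in miR-142-/- cells, and the Y-linked Eif2s3y read 4.29 and 4.39 in WT, against 10.55 and 10.58 in miR-142-/- cells, although both pools are labelled as mixed. Every genotype difference given here is thus also one between arrays that differ in these transcripts, and the effects of the 2 cannot be told apart. In bulk RNA, fewer cells of a type and less RNA per cell cannot be told apart either.

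Of the 30 genes, 25 had a mean above background. H1f6, H1f8, H2ac8, H3c15 and H3c7 did not. Values are given as log2 expression, and a difference of 1 on that scale is a doubling. Levels of different genes were not compared, since each probe set has its own brightness. Within WT Qa2- cells the deposited values of the 25 ran from 6.09 for H2bc22 to 12.95 for H4c4.

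**Figure D1:**
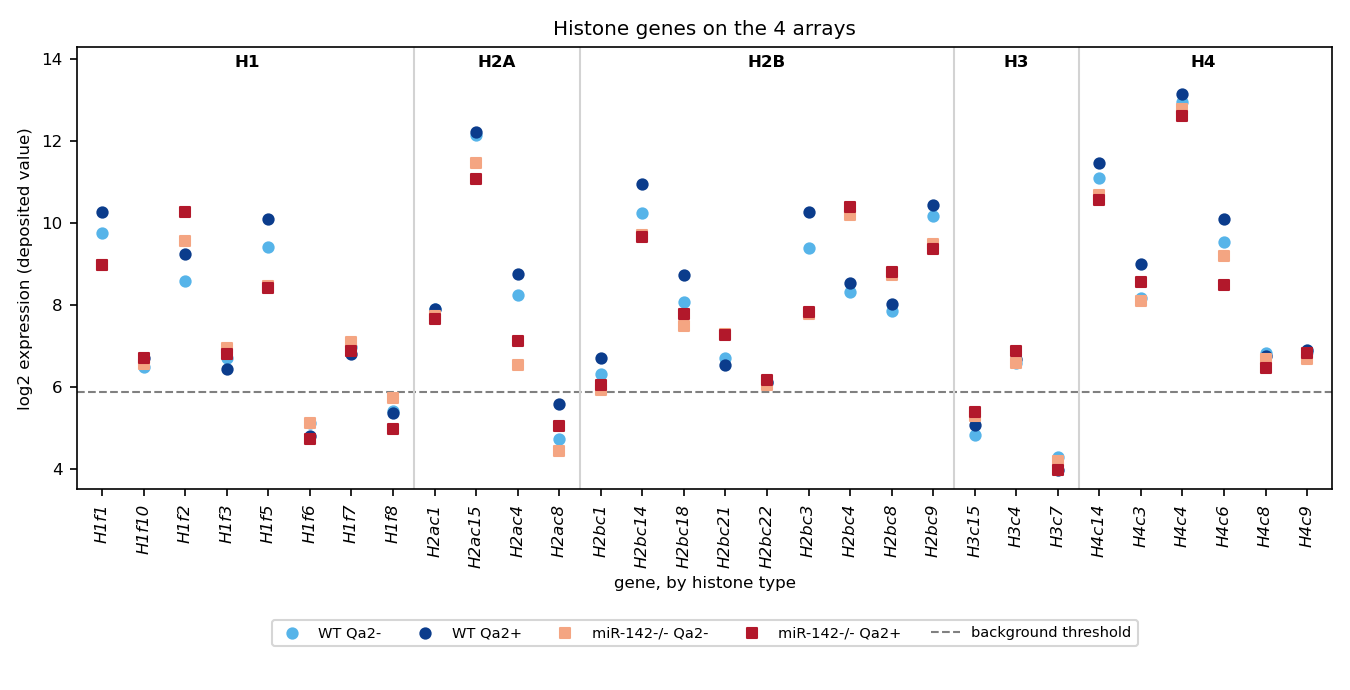
Deposited log2 expression (y axis) of the 30 histone genes (x axis, by type) on the 4 arrays, 1 point per array, with the background threshold as a dashed line. The WT and miR-142-/- points lie far apart for H2bc3, H2ac4 and H2bc4, with the miR-142-/- points below for the first 2 and above for H2bc4, and 5 genes have means under the line.

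The genotype comparison asks how the loss of miR-142 alters expression at each stage. Histone genes differed in both directions. H2bc3, H2ac4, H1f5, H1f1, H2ac15 and H2bc9 were lower in both miR-142-/- populations than in WT by at least 1.5-fold, and H2bc4, H1f2, H2bc8 and H2bc21 were at least 1.5-fold higher in both. The 6 lower genes are 24% of the 25 above background, beside 2.75% of all 12581 genes above background, and the 4 higher ones are 16%, beside 2.14%.

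In Qa2- cells alone the counts were the same 6 lower and 4 higher, beside 3.74% and 3.10% of all genes. In Qa2+ cells 11 were lower, beside 4.88%, and the same 4 were higher, beside 4.55%. The 5 genes that joined the lower group in Qa2+ cells were H2bc1, H2bc14, H2bc18, H4c14 and H4c6. Over all 30 genes, dim ones included, the counts did not differ from these, beside 2.54% and 2.10% of all 19938 genes in Qa2- and 3.32% and 3.17% in Qa2+ cells. By sign alone, 16 of the 25 (64%) were lower and 6 (24%) higher in both populations, beside 35.4% and 35.3% of all genes above background. The median difference of the 25 was -0.16 in Qa2- and -0.44 in Qa2+ cells, against -0.00 and 0.00 for all genes above background.

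The proliferation marker Mki67 differed by -2.40 and -2.41 between the genotypes in the 2 populations, and its part in the histone differences was not tested. Differences of the dim olfactory and vomeronasal receptor genes, a measure of scatter at low signal and not of the spread between mice, had an SD of 0.15 in Qa2- and 0.18 in Qa2+ cells.

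**Figure D2:**
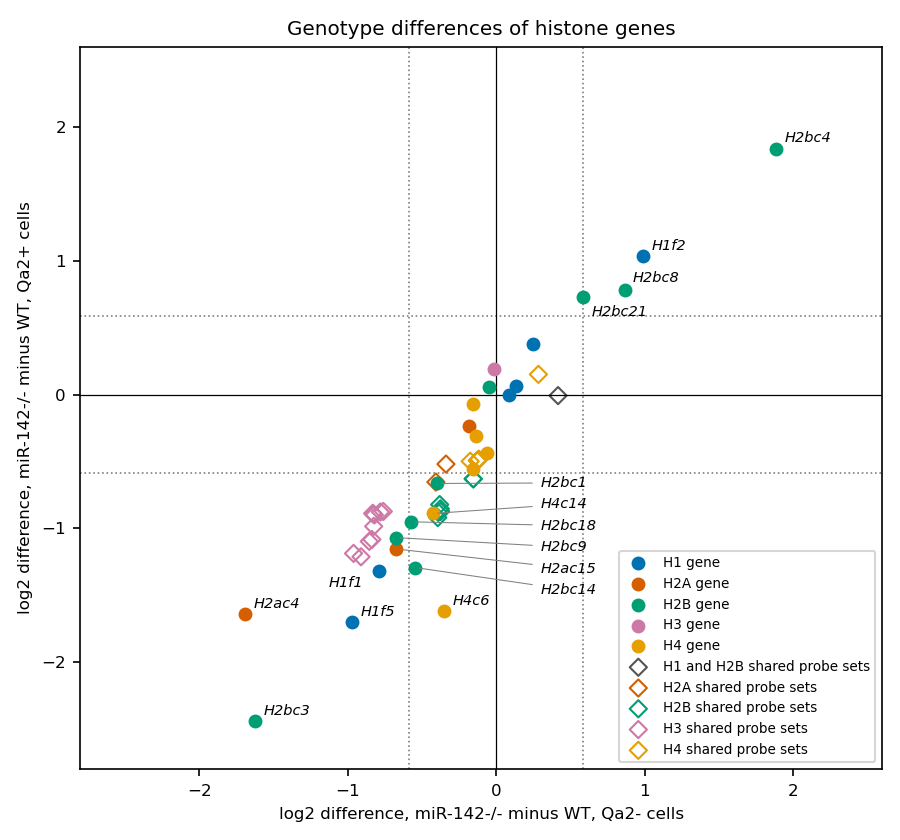
Log2 difference of miR-142-/- minus WT in Qa2- cells (x axis) and Qa2+ cells (y axis) for the 25 histone genes above background (filled, coloured by type) and for 26 probe sets that name several genes (open diamonds), with dotted lines at 1.5-fold. H2bc3 and H2ac4 lie far down to the left and H2bc4 far up to the right, while the shared probe sets lie mostly at or below 0 on both axes.

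The promoters of 5 genes that differ in direction are shown first, since they put the sequence features of histone genes beside the genes that the comparison turns on. H2bc3, H2ac4 and H1f5 were lower in miR-142-/- cells, and H1f2 and H2bc8 were higher. Each line holds the 150 bases just before the transcript start, 5′ to 3′ on the gene's strand, from RefSeq on GRCm38.p6. Capitals mark matches on either strand to ATTTGCAT (the octamer of H2B promoters), CCAAT (the box bound by NF-Y), TATAAA (the TATA box) and AAACACA (the AC box of H1 promoters). H2bc3 is at chr13:23746584-23746733 (plus strand), H2ac4 at chr13:23750938-23751087 (plus), H1f5 at chr13:21780626-21780775 (minus), H1f2 at chr13:23738657-23738806 (plus) and H2bc8 at chr13:23571250-23571399 (plus).
H2bc3: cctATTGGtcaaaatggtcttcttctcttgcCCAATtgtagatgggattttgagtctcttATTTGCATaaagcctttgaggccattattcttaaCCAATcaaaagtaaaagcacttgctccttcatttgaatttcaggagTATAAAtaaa
H2ac4: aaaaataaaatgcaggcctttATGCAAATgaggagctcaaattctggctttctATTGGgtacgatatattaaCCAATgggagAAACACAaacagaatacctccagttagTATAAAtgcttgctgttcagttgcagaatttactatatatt
H1f5: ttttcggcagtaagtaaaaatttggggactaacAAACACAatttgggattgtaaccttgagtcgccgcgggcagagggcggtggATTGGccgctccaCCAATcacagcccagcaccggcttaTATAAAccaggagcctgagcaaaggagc
H1f2: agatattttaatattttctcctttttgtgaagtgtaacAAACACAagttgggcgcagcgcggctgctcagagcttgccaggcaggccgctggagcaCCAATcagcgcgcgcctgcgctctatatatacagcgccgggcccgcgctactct
H2bc8: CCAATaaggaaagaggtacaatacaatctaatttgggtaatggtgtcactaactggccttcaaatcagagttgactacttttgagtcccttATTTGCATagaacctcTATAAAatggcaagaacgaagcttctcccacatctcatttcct

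H2bc3 and H2bc8, which differ in opposite directions, both carry the octamer, 90 and 59 bases before the start. H1f5 and H1f2, likewise opposite, both carry the AC box, 117 and 112 bases before the start. The RefSeq table held promoters of 26 of the 30 genes, all but H2bc4, H2bc21, H3c7 and H4c14. Over the whole window of 300 bases (250 before and 50 after the start, both strands), the octamer occurred in 8 of the 26 (30.8%), beside 1.97% of 27025 genes in the table. Those 8 were 3 of 4 H2A and 5 of 7 H2B promoters, and no H1, H3 or H4 promoter held it. The octamer was present in promoters of genes lower in miR-142-/- cells (H2bc3, H2ac4), higher (H2bc8) and below background (H2ac8).

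CCAAT occurred in 21 of the 26 (80.8%), beside 41.1% of all promoters, and TATAAA in 15 (57.7%), beside 15.7%. The AC box occurred in 8 (30.8%), beside 8.22%, and 4 of these were H1 genes (H1f2, H1f3, H1f5 and H1f6). No member held TTTGGCGC, an E2F-type sequence, in this window, beside 0.585% of all promoters. Among genes with a promoter in the table, no motif searched separated those lower in miR-142-/- cells from those that were higher. Of the higher genes only H1f2 and H2bc8 have a promoter there, too few to tell whether a motif goes with direction.

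Among the H1 linker histones, H1f5 and H1f1 were lower and H1f2 was higher in miR-142-/- cells. H1f5 read 9.42 and 10.10 in WT Qa2- and Qa2+ cells, against 8.46 and 8.40 in miR-142-/- cells, so that both WT arrays were above both miR-142-/- arrays. Its differences of -0.97 and -1.70 correspond to 1.96-fold and 3.25-fold lower values. H1f5 and H1f1 both encode somatic linker histones made in S phase. H1f1 read 9.76 and 10.28 in WT, against 8.97 and 8.96 in miR-142-/- cells, 1.73-fold and 2.49-fold lower.

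H1f2 read 8.58 and 9.24 in WT Qa2- and Qa2+ cells, against 9.57 and 10.27 in miR-142-/- cells. The array order was thus by genotype and by stage, with WT Qa2- lowest and miR-142-/- Qa2+ highest. H1f2 was 1.99-fold higher in miR-142-/- Qa2- cells and 2.05-fold higher in Qa2+ cells. H1f3, a further somatic H1, differed by 0.25 and 0.38, under 1.5-fold. The other linker histones above background, H1f7 and H1f10, differed by -0.00 to 0.13, and the dim H1f6 and H1f8 by -0.38 to 0.30. The median of the 6 H1 genes above background was 0.11 in Qa2- and 0.03 in Qa2+ cells, with the range from -0.97 to 0.99 in Qa2- cells.

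Of the H2A genes, H2ac4 and H2ac15 were lower in miR-142-/- cells. H2ac4 read 8.24 and 8.76 in WT Qa2- and Qa2+ cells, against 6.54 and 7.12 in miR-142-/- cells, with both miR-142-/- arrays below both WT arrays. It was 3.23-fold and 3.12-fold lower, so the 2 populations differed little from each other. H2ac15 read 12.15 and 12.22 in WT, against 11.48 and 11.07 in miR-142-/- cells, and was 1.59-fold and 2.23-fold lower. The testis gene H2ac1 differed by -0.18 and -0.24, and H2ac8 was below background.

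The H2B genes spread most widely. H2bc3 read 9.39 and 10.27 in WT Qa2- and Qa2+ cells, against 7.77 and 7.83 in miR-142-/- cells. The 2 miR-142-/- arrays were close to each other and below both WT arrays. H2bc3 was lower by a factor of 3.08 in Qa2- and of 5.42 in Qa2+ cells, the 46th and the 13th lowest difference of 12581 genes. H2bc9 read 10.17 and 10.45 in WT, against 9.49 and 9.38 in miR-142-/- cells, 1.60-fold and 2.10-fold lower.

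H2bc4 differed the other way. It read 8.31 and 8.54 in WT Qa2- and Qa2+ cells, against 10.20 and 10.38 in miR-142-/- cells, with both miR-142-/- arrays above both WT arrays. It was 3.70-fold and 3.58-fold higher, the 27th and the 41st highest difference of 12581 genes. H2bc8 read 7.86 and 8.01 in WT, against 8.73 and 8.80 in miR-142-/- cells, 1.82-fold and 1.72-fold higher. H2bc21, the H2B gene of chromosome 3 known for polyadenylated transcripts, read 6.71 and 6.54 in WT, against 7.30 and 7.27 in miR-142-/- cells. Its differences were 0.59 and 0.73, of which the first lay on the 1.5-fold line and was under it when the arrays were median-centred (0.56) or quantile-normalized (0.57).

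Further H2B genes were lower mainly in Qa2+ cells. H2bc18 read 8.06 and 8.73 in WT Qa2- and Qa2+ cells, against 7.49 and 7.78 in miR-142-/- cells, 1.49-fold and 1.93-fold lower, so only the Qa2+ difference passed 1.5-fold. H2bc14 differed by -0.55 and -1.29 and H2bc1 by -0.40 and -0.66. H2bc22 differed by -0.05 and 0.06. Over the 9 H2B genes the median was -0.40 for Qa2- and -0.66 for Qa2+ cells, while single genes ran from -1.62 to 1.89 in Qa2- cells.

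Only 1 of 3 H3 genes with a probe set of its own, H3c4, was above background, and it differed by -0.02 and 0.19. H3c7 and H3c15 were dim, with differences of -0.09 to 0.46. The level of H3 transcripts therefore rests on shared probe sets, described further on.

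All 6 H4 genes were above background, and none was 1.5-fold apart in Qa2- cells. H4c6 read 9.55 and 10.10 in WT Qa2- and Qa2+ cells, against 9.20 and 8.48 in miR-142-/- cells, with the miR-142-/- Qa2+ array lowest. Its value was lower by a factor of 1.28 in Qa2- and of 3.08 in Qa2+ cells. H4c14, the H4 gene of chromosome 3, read 11.10 and 11.46 in WT, against 10.68 and 10.57 in miR-142-/- cells, 1.34-fold and 1.85-fold lower. H4c4 differed by -0.16 and -0.55 and H4c3 by -0.06 and -0.44, while H4c8 and H4c9 differed by -0.31 to -0.07.

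The coding sequences of core histone genes of a type are near-identical, so short probes can bind mRNAs of several genes. The annotation lists 26 further probe sets that name several genes, at least 1 of them matching the symbol rule, and together these name 54 histone symbols. Of the 30 genes, 18 are also named on such a set, while the 8 H1 genes, H2ac1, H2bc18, H2bc21 and H4c14 are not. A further 36 symbols are named only there and have no value of their own here. Bright signal is common on the shared sets: 24 of the 26 were within the brightest 3.22% of probe sets on every array.

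A shared set can read the mRNAs of several genes at once, mostly of the same type. Both H2A sets also name H3c4, and another set names H2bc6 with H1f4. The 10 H3 sets, which name 12 symbols each, read 12.70 to 13.11 in WT Qa2- cells, 13.01 to 13.43 in WT Qa2+, 11.79 to 12.20 in miR-142-/- Qa2- and 11.80 to 12.46 in miR-142-/- Qa2+ cells. The WT and miR-142-/- ranges did not overlap in either population. These ranges run over probe sets on 1 array per group and hold no spread between mice. The genotype differences of the 10 sets were -0.96 to -0.76 in Qa2- and -1.21 to -0.87 in Qa2+ cells. All 10 thus passed 1.5-fold in both, beside 2.75% of all genes above background. These 10 sets name the same 12 symbols and are not separate measurements of 10 genes.

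The 7 H2B sets (14 to 15 symbols each) differed by -0.39 to -0.15 in Qa2- and by -0.92 to -0.63 in Qa2+ cells. All 7 name H2bc4, whose own probe set differed by 1.89 and 1.84, the opposite sign. The 2 H2A sets, with 19 and 20 symbols, differed by -0.41 and -0.34 in the Qa2- population and by -0.65 and -0.52 in the Qa2+ population. The 5 H4 sets of 11 symbols differed by -0.17 to -0.12 in Qa2- and by -0.50 to -0.48 in Qa2+ cells, near the values of H4c4's own set. The set of H4c11 and H4c17 was dim or just above background, with differences of 0.29 and 0.15. With that set included, the 6 H4 sets gave 5 distinct readings. The set that names H2bc6 and H1f4 read 8.19 and 8.56 in WT, against 8.61 and 8.56 in miR-142-/- cells, with differences of 0.42 and -0.01.

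Of the 10 genes past 1.5-fold in both populations, 6 are also named on shared sets, and their own values can hold signal from other histone mRNAs. The other 4 are H1f5, H1f1, H1f2 and H2bc21, of which 2 were lower and 2 higher. Both directions are thus present among genes that no shared set names. Which probes a set holds was not analysed here, so the values of the other 4 can hold signal from other histone mRNAs too.

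**Figure D3:**
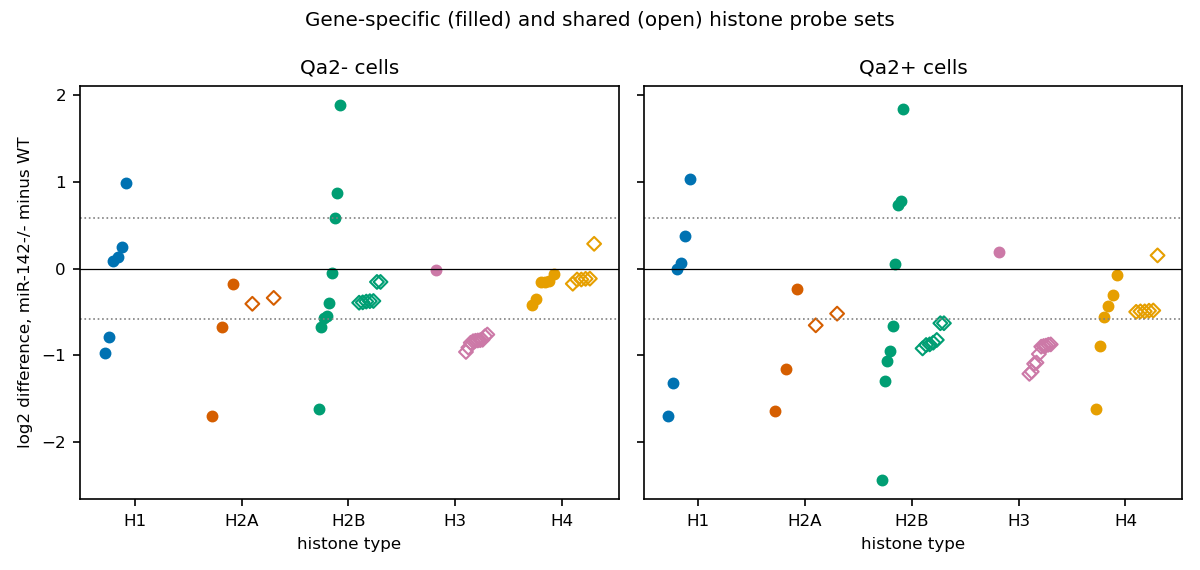
Log2 difference of miR-142-/- minus WT (y axis) by histone type (x axis) in Qa2- cells (left) and Qa2+ cells (right), with single-gene probe sets above background filled and shared probe sets open; the set of H2bc6 and H1f4 is left out. H2B genes spread from -1.62 to 1.89 in Qa2- cells while the 7 shared H2B sets lie between -0.39 and -0.15, and the 10 shared H3 sets lie below -0.58 in both panels.

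Along chromosome 13, genes of opposite direction lay close together in the RefSeq order. H2bc3 and H2ac4, both over 3-fold lower in both populations, are direct neighbours. H1f2, about 2-fold higher, lies on the side of H2bc3 away from H2ac4 with 2 genes between. H2ac8, which was below background (-0.30 and -0.54), is the direct neighbour of H2bc8 (0.87 and 0.78). H2bc14, H2ac15 and H1f5 follow each other with 2 genes between each, and all 3 were over 2-fold lower in Qa2+ cells. H2bc9, H3c7, H4c6 and H1f3 are consecutive, and their differences in Qa2+ cells were -1.07, -0.00, -1.62 and 0.38. H2bc4, the highest, lies next to the dim H1f6, and H4c3 follows at -0.06 and -0.44.

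**Figure D4:**
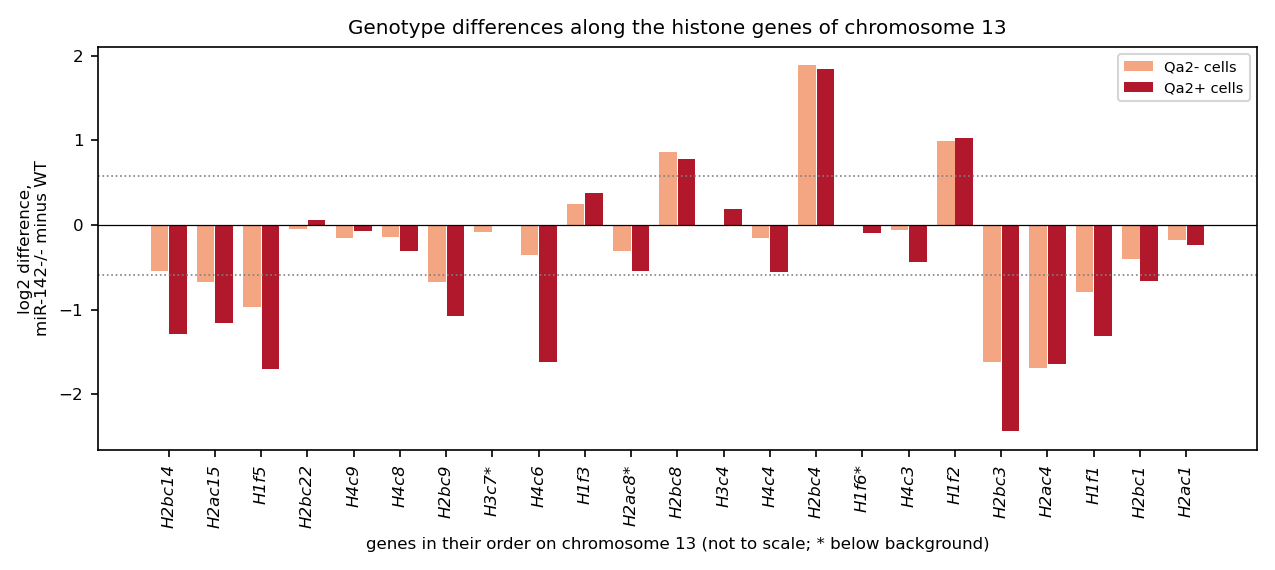
Log2 difference of miR-142-/- minus WT (y axis) in Qa2- cells (light bars) and Qa2+ cells (dark bars) for the 23 histone genes of chromosome 13 in their order along it (x axis, not to scale; a star marks genes below background; dotted lines at 1.5-fold). Bars of opposite direction stand near each other, as for H1f2 at 0.99 and 1.03 and H2bc3 at -1.62 and -2.44.

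The stage comparison asks how Qa2+ differ from Qa2- cells. In WT cells several histone genes were higher in the more mature Qa2+ population. H1f2, H1f5, H2bc3, H2bc14, H2bc18 and H4c3 were at least 1.5-fold higher, 6 of 25 or 24%, beside 2.69% of all genes above background. None of the 25 was 1.5-fold lower, beside 3.70%. In miR-142-/- cells only H1f2 was 1.5-fold higher, beside 2.65%, and H4c6 was 1.5-fold lower, beside 3.64%. H1f2 was thus the 1 gene higher in both genotypes, beside 1.29% of all genes, and none was lower in both, beside 1.80%.

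Over all 30 genes the dim H2ac8 and H1f8 are added. H2ac8 was 1.5-fold higher in both genotypes and H1f8 was 1.5-fold lower in miR-142-/- cells. The counts were then 7 higher (2.07% of all 19938 genes) and 0 lower (2.88%) in WT, and 2 higher (2.03%) and 2 lower (2.83%) in miR-142-/- cells. The median stage difference of the 25 was 0.23 in WT and -0.01 in miR-142-/- cells, against -0.06 in both for all genes.

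Averaged over the genotypes, 4 genes rose in Qa2+ cells and none fell by limma (genotype as a block, Benjamini-Hochberg over 12581 genes). At an unadjusted p under 0.05, 6 of the 25 (24%) were higher and 0 lower, beside 29.8% of all genes in either direction. Of all genes, 4.89% rose and 8.54% fell. These were 615 rises and 1075 falls, but 1088 and 737 when the arrays were median-centred and 980 and 770 when they were quantile-normalized, where 5 and 4 histone genes rose and none fell. With each of these scalings, 12 histone genes had an unadjusted p under 0.05 in limma, in place of 6 as deposited. All genes under that threshold numbered 3553 median-centred and 3541 quantile-normalized, against 3744 as deposited.

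H1f2 rose by 0.68 ± 0.10 (SE, limma adjusted p = 0.00489), with differences of 0.66 in WT and 0.70 in miR-142-/- cells. H4c3 read 8.17 and 8.99 in WT Qa2- and Qa2+ cells, against 8.10 and 8.56 in miR-142-/- cells. It rose by 0.64 ± 0.12 (SE, limma adjusted p = 0.0126). H2ac4 rose by 0.55 ± 0.10 (SE, limma adjusted p = 0.0116), with differences of 0.52 in WT and 0.57 in miR-142-/- cells. H2bc18 rose by 0.48 ± 0.12 (SE, limma adjusted p = 0.0356), with differences of 0.67 and 0.29. Each of the 4 was higher in both pairs of arrays. The test rests on 2 pairs of pools, with 1 residual degree of freedom beside a prior of 7.11 estimated over all genes tested. Its p-values thus rest mostly on a spread pooled over genes, and they do not measure the spread between mice. Without the genotype block none of the 12581 genes passed, and so none of the 4. At an unadjusted p under 0.05 in limma there was then 1 histone gene, beside 1543 of all 12581 genes.

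Several genes with large stage differences in WT did not pass this test. H2bc3 was higher by 0.87 in WT and by 0.06 in miR-142-/- cells (limma adjusted p = 0.118). H1f5 differed by 0.68 and -0.05, H2bc14 by 0.69 and -0.05 and H1f1 by 0.52 and -0.01. H4c6 differed in opposite directions, by 0.56 in WT and by -0.71 in miR-142-/- cells. Taken with its sign, the stage difference was lower in miR-142-/- than in WT cells for 18 of the 25 genes (72%), beside 50.1% of all genes. Its size was smaller for 15 (60%), beside 49.9%. No residual degrees of freedom remain for a test of that difference. It is the same quantity as the difference between the 2 genotype comparisons, which share all 4 arrays with it.

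The bright shared sets were higher in WT Qa2+ cells too, and less so or not in miR-142-/- cells. The 10 H3 sets were higher in Qa2+ cells by 0.31 to 0.37 in WT and by 0.01 to 0.26 in miR-142-/- cells. The 7 H2B sets differed by 0.31 to 0.47 in WT and by -0.15 to -0.00 in miR-142-/- cells. The 5 H4 sets of 11 symbols differed by 0.25 to 0.38 in WT and by -0.11 to 0.01 in miR-142-/- cells. The 2 H2A sets differed by 0.25 and 0.32 in WT and by 0.07 in miR-142-/- cells, and the set of H2bc6 and H1f4 by 0.37 and -0.05. The dim set of H4c11 and H4c17 was higher by 0.65 in WT and by 0.52 in miR-142-/- cells.

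Other signals also differed with stage. Mki67 was higher in Qa2+ cells by 0.69 in WT and by 0.68 in miR-142-/- cells. Of 6 markers of CD8 or double-positive thymocytes 5 were above background. From Qa2- to Qa2+ cells their mean level over all 6 went from 6.95 to 7.82 in WT and from 6.93 to 7.62 in miR-142-/- cells. The members of that list differed. Rag1, active in double-positive thymocytes, went from 5.92 to 8.63 in WT and from 6.11 to 8.02 in miR-142-/- cells. Dntt went from 7.47 to 8.46 and from 7.94 to 9.54, and Ptcra from 6.22 to 6.86 and from 6.22 to 6.59. Rag2, which was below background, was also higher in Qa2+ cells of both genotypes. Cd8a went from 7.53 to 7.47 and from 7.33 to 7.25, and Cd8b1 from 9.97 to 9.98 and from 9.24 to 8.75. Of 4 myeloid markers 2 were above background: Lyz2 went from 5.87 to 7.48 and from 5.98 to 6.67, and Itgam from 6.34 to 6.31 and from 6.18 to 5.98. The mean over the 4 went from 5.70 to 6.20 in WT and from 5.77 to 5.83 in miR-142-/- cells. The part of these signals in the histone differences was not tested.

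**Figure D5:**
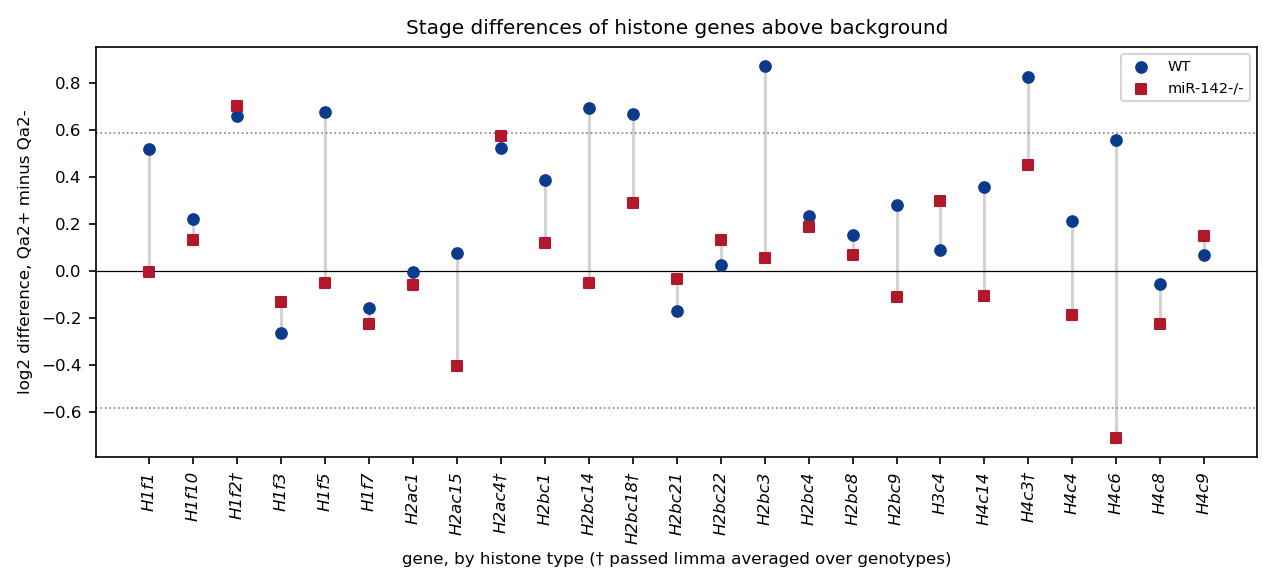
Log2 difference of Qa2+ minus Qa2- cells (y axis) for the 25 histone genes above background (x axis, by type) in WT (circles) and miR-142-/- cells (squares), joined by a line per gene, with dotted lines at 1.5-fold and a dagger on the 4 genes that passed limma. For H2bc3, H1f5 and H2bc14 the WT point lies at 0.68 to 0.87 and the miR-142-/- point near 0, and for H4c6 the points lie on opposite sides of 0.

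Genes that make, process and use these mRNAs were described from lists chosen by function. Of 16 genes of histone mRNA transcription and processing above background, 3 were 1.5-fold lower in miR-142-/- cells in each population and 0 higher. E2f1 and Slbp were lower in both, joined by Snrpe in Qa2- and by Snrpg, on the 1.5-fold line, in Qa2+ cells. Of all genes above background, 3.74% were lower in Qa2- and 4.88% in Qa2+ cells, and 3.10% and 4.55% were higher. The medians of the 16 were -0.19 and -0.15. The S phase activator E2f1 differed by -1.35 and -1.50. Slbp, the stem-loop binding protein, read 8.97 and 9.15 in WT Qa2- and Qa2+ cells, against 8.29 and 8.39 in miR-142-/- cells, lower by 0.67 and 0.76 on the log2 scale. Npat differed by -0.11 and 0.21 and Casp8ap2, a further protein of the histone locus body, by -0.33 and 0.07. The Sm protein genes Snrpg and Snrpe differed by -0.42 and -0.59 and by -0.66 and -0.28. For stage, 0 of the list passed limma, and 3 of the 16 had an unadjusted p under 0.05, beside 29.8% of all genes.

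None of 10 genes of histone mRNA decay was 1.5-fold apart in either population, with medians of -0.08 and -0.03. Of all genes, 3.74% were lower in Qa2- and 4.88% in Qa2+ cells, and 3.10% and 4.55% were higher. Lsm4, of the ring that binds mRNA 3′ ends, differed by -0.27 and -0.50, the exonuclease Eri1 by -0.28 and -0.12, the uridylating enzyme Tut4 by 0.14 and 0.17, and the decapping enzyme Dcp2 by -0.12 and -0.14. For stage 0 of these passed limma, and 2 of the 10 had an unadjusted p under 0.05, beside the same 29.8%.

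Of 22 histone chaperone and deposition genes above background, 6 were 1.5-fold lower in Qa2- and 5 in Qa2+ cells, and 0 higher. Their medians were -0.32 and -0.20. The shares of all genes were 3.74% and 4.88% lower, and 3.10% and 4.55% higher. Asf1b, a chaperone of H3 and H4 in dividing cells, differed by -1.66 and -2.55. Chaf1a, the large subunit of the CAF-1 complex that deposits H3 and H4 on new DNA, read 7.34 and 7.55 in WT, against 6.42 and 6.00 in miR-142-/- cells, with differences of -0.91 and -1.56. Mms22l, which acts at damaged replication forks, differed by -1.02 and -0.72, and Anp32e, a chaperone of H2A.Z, by -0.86 and -0.85. Tonsl, the partner of Mms22l, rose with stage by 0.49 (limma adjusted p = 0.0243), and no other gene of the list passed. Of all genes, 4.89% rose and 8.54% fell in limma.

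Of 7 genes above background on the list of replication-independent histone variants, 1 was 1.5-fold lower in Qa2- and 2 in Qa2+ cells. Whether each of them is independent of replication in these cells was not tested. The shares of all genes were 3.74% and 4.88%. Cenpa, the centromeric H3 variant, differed by -0.98 and -0.96 and rose with stage by 0.68 (limma adjusted p = 0.00468). H2ax, the variant phosphorylated at DNA breaks, differed by -0.17 and -1.02, H2az1 by -0.53 and -0.44, and H2aj by -0.45 and 0.01. Both shared H2A sets also name H2ax, and the set of 20 symbols names H2aj as well.

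Genes of DNA replication in S phase had larger median differences than the 25 histone genes above background, but in Qa2+ cells not than the shared H3 sets. All 29 on the array were above background. Of them, 22 were 1.5-fold lower in miR-142-/- cells in each population, beside 3.74% and 4.88% of all genes, and 0 were higher. The 22 were not all the same genes in the 2 populations. Their medians were -1.11 and -0.92, beside -0.16 and -0.44 for the histone genes. Ccna2, the cyclin of S phase, differed by -2.30 and -2.76, Rrm2, a subunit of ribonucleotide reductase, by -2.17 and -2.25, the polymerase gene Pole by -2.33 and -2.03, and Dtl by -1.86 and -1.98. Between stages 5 of the 29 rose and 2 fell in limma, beside 4.89% and 8.54% of all genes. The replication and cell cycle genes Ccna2, Mcm6, Ccne1, Rrm2 and Fen1 rose by 0.67, 0.56, 0.54, 0.54 and 0.39 (limma adjusted p = 0.0140, 0.0448, 0.0207, 0.0128 and 0.0378). Cdc25a fell by 0.53 (limma adjusted p = 0.0126) and Tyms by 0.43 (limma adjusted p = 0.0277). Whether the histone differences follow those of S phase genes was not tested.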

How the data were processed

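The deposited values are log2 expression per probe set of 4 Affymetrix Mouse Gene 1.0 ST arrays. The submitters' processing notes name RMA and Partek; their versions are not given in the sources used here. The steps of RMA are background removal, equalising of arrays and summarising of probes. The labels do not say whether labelling needed a poly(A) tail. Of 35557 probe sets, 21789 listed 1 gene and 1621 several in the platform annotation. Each of 19938 genes took its probe set with the highest mean. A gene counted as above background if that mean passed log2 5.87. This is the 95th percentile over 1190 receptor genes of the olfactory and vomeronasal families, and 12581 genes passed. Array medians were 6.61 to 6.74, and correlations between arrays 0.982 to 0.991 (4 arrays, whose number limits the precision).

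Genotype and stage differences within a group of 2 arrays had no test and were counted at 1.5-fold. For the mean stage difference of both genotypes the test was limma 3.58.1 (R 4.3.3; two-sided, genotype as a block because both stages came from 1 pool, prior of 7.11 degrees of freedom, threshold 0.05). The test script was tested on simulated data. Per-array values are printed for genes at least 1.5-fold apart between genotypes, up to 6 per type, and for genes passing limma; in each list up to 4 genes with the largest mean genotype difference are named, plus Slbp, Npat, Casp8ap2 and Chaf1a, and genes that passed limma. The histone genes and the lists were chosen with earlier results of these data known. Scaling, background threshold, fold, probe set rule, members and block were varied.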

Additional observations from a re-analysis of the deposited data

Results flagged for a closer look

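H4c6 was higher in Qa2+ than in Qa2- cells by 0.56 in WT and differed by -0.71 in miR-142-/- cells, both on the log2 scale. The directions are opposite and each size is above the SD of the receptor genes' stage differences, 0.22 in WT and 0.21 in miR-142-/- cells. The difference between the genotypes, -1.27, was not tested, since 1 array per group leaves no residual degrees of freedom. H4c6 is 1 of the genes also named on shared probe sets, and the 5 bright shared H4 sets differed by 0.25 to 0.38 in WT and by -0.11 to 0.01 in miR-142-/- cells.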

How the results depend on the processing

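Among the recomputed counts and medians, 122 stayed within 1.5 times the reported count or within the scatter of receptor genes, and 26 did not. The 122 include the mean of all probe sets of a gene. That setting could not alter the histone values, since the 30 genes have 30 single-gene probe sets. They also include a background at the 90th percentile, which left every count and median as reported. Median-centred and quantile-normalized arrays each gave 2 genes higher with stage in miR-142-/- cells in place of 1. A background at the 99th percentile moved the median genotype difference to -0.35 in Qa2- and -0.89 in Qa2+ cells. With no filter on dim genes, 2 genes were lower and 2 higher with stage in miR-142-/- cells, and 1 fell in limma. Shared probe sets that name only genes of the rule, counted as members, gave 16 lower genes or probe sets in Qa2- and 21 in Qa2+ cells, of which 10 are the H3 sets of the same 12 symbols, at medians of -0.35 and -0.66. All 26 shared sets, a choice made after seeing the data, gave 16 and 29, with medians of -0.37 and -0.74. The 29 include the 7 H2B sets, of which 6 gave distinct readings. At 1.3-fold, 10 genes were lower in miR-142-/- Qa2- cells, 10 were higher with stage in WT, and 2 were lower and 3 higher with stage in miR-142-/- cells. At 2-fold, 2 were lower and 1 higher in miR-142-/- Qa2- cells, 2 were higher in Qa2+ cells, and 0 differed with stage in either genotype. Shares of all genes at 1.3-fold and 2-fold, and in limma with no filter, are not given. These counts therefore cannot be read against all genes. The limma fit pairs the 2 stages of each pool through the genotype block. Without it 0 passed, both of the histone genes and of all 12581 genes. These shifts follow from the number of genes or probe sets counted, the threshold or the block, except those of scaling, whose cause was not tested. The median stage difference averaged over genotypes, 0.13, was -0.01 without the WT pair and 0.23 without the miR-142-/- pair. In miR-142-/- cells alone the median was -0.01 as deposited and 0.06 median-centred. Of 66 recomputed differences of named genes, 64 kept their side of the 1.5-fold line and 2, both of H2bc21, did not. Depth has no counterpart here: dim probe sets near background compress differences.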
